A study of Mus musculus with 6 samples.

Results

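The HOX genes are described here in cultured mouse dermal fibroblasts, by cluster (HOXA, HOXB, HOXC and HOXD) and by paralogue number. The members are 38 listed HOX genes, taken as rows whose symbol equals a listed name in a table of 46958 gene rows. Of these, 30 have a row of their own and the other 8 share 4 merged rows, which stay out of every count. At a mean of at least 1 FPKM (fragments scaled to transcript length and library depth), 23 of the 30 entered the test, as did 12673 rows of the whole table. The remaining 7 lay under that level.

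The fibroblasts were grown from the dermis of mice 1 to 2 days old, pooled from different animals and used at early passage. The tested cells carry the label RORγ-/-, a knockout of the nuclear receptor RORγ, and are called knockout-labelled below. The cells they were compared with carry the label RORγ+/+ (wild type). Every culture of both genotypes received 100 nM of a hydroxylated sterol for 24 h in 0.1% ethanol with 10% charcoal-stripped serum. The sterols were the lumisterol derivative 20(OH)L3, then 20(OH)Cholesterol, and a compound made from 7-dehydrocholesterol, 20(OH)7DHC. With 1 library for each genotype and sterol, each genotype has 3 libraries, and no ethanol-only library was analysed here. The strain is not given in the labels, nor is the body site of the skin, and which animals entered which pool is not stated. P-values therefore rest only on how far the genotype difference varied between the 3 sterols, not on the spread between animals or pools. Any difference between the pools, in sex or body site for instance, cannot be told apart from genotype.

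HOX genes encode homeodomain transcription factors that lie in 4 clusters in mammals. Genes of low paralogue number sit at the 3′ end of a cluster and are active towards the head, and genes of high number sit at the 5′ end and act in the lower trunk and the outer parts of the limbs. Fibroblasts keep much of this pattern in culture, so that the set of HOX transcripts is known as a mark of the body site they came from. HOX proteins bind DNA together with homeodomain partners of the PBX and MEIS families, Polycomb proteins keep silent HOX genes closed, Trithorax proteins keep active ones open, and retinoic acid switches on 3′ genes in the embryo.

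The promoters of the members that differed between genotypes are shown first, since the letters just upstream of each start are where neighbouring genes of a cluster can be compared. They are from RefSeq on GRCm38.p6, hold the 250 bases before the annotated start and are written 5′ to 3′ on the gene's strand. Capitals mark AGGTCA, the half-site that many nuclear receptors recognise, and CCAAT, a common core promoter element, on either strand, so that ATTGG is CCAAT read from the other strand. The Hoxa9 window is chr6:52227371-52227620 (minus strand). It lies before the RefSeq start but inside the longer span of Hoxa9 given below, not before the 5′ end of that span. The Hoxa10 window is chr6:52234940-52235189 (minus strand, the more downstream of 2 annotated starts). The Hoxa11 window is chr6:52245811-52246060 (minus strand), and the Hoxd8 window chr2:74704365-74704614 (plus strand). The Hoxd9 window, chr2:74697513-74697726 (plus strand), was trimmed to 214 bases where it met an annotated exon. Hoxb5 and Hoxb6 are named only.
Hoxa9: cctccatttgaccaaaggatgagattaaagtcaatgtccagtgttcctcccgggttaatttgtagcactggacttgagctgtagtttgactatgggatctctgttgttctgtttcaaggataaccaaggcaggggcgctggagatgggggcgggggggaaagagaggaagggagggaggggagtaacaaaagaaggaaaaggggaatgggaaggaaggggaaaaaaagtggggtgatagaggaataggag
Hoxa10: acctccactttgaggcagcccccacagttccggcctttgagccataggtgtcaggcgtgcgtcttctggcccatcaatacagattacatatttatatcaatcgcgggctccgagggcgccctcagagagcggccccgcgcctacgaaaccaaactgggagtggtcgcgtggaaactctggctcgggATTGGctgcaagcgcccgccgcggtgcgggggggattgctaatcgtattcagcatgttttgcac
Hoxa11: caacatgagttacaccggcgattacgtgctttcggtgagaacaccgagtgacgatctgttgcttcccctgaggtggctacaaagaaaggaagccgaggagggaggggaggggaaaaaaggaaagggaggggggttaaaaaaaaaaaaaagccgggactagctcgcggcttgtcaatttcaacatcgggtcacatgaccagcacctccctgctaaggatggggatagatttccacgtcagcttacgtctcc
Hoxd8: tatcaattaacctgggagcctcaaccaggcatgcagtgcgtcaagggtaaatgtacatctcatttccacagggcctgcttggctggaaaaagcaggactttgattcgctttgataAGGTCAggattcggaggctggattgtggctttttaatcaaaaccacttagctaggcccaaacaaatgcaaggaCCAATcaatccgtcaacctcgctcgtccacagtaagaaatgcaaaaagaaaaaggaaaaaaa
Hoxd9: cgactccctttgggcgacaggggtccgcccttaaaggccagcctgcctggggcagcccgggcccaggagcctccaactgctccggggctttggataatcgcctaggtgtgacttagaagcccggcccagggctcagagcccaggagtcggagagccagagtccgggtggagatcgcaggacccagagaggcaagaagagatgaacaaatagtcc

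The windows differ in CG content. The dinucleotide CG occurs 3 times in the Hoxa9 window, 20 times in that of Hoxa10, 13 times in that of Hoxa11, 6 times in that of Hoxd8 and 10 times in that of Hoxd9. The window of the other Hoxa10 start, chr6:52240855-52241104, directly before the gene as annotated, holds CG 7 times and neither motif. Of the printed windows, that of Hoxd8 holds 1 AGGTCA, and those of Hoxd8 and Hoxa10 hold 1 CCAAT each. RefSeq windows matched 22 of the 38 members, with 24 starts. In the untrimmed 250 bases, AGGTCA was found before 6 of these 24 starts (25%), against 14.0% of 32851 promoters of the same length, and CCAAT before 14 (58.3%) against 33.9%. The median CG count was 12.5 per HOX window, against 6 over all promoters. These matches describe the letters only.

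Depth was estimated at 9000000, 7700000 and 13200000 fragments in the knockout-labelled libraries (20(OH)L3 first, then 20(OH)Cholesterol, then 20(OH)7DHC), and at 12500000 to 13050000 in wild type. A single fragment on a 1 kb transcript was then worth 0.0758 to 0.130 FPKM. The fibroblast markers, collagens and Vim among them, summed to 5061 to 6831 FPKM in knockout-labelled libraries and 7782 to 8139 FPKM in wild type, and 5 of the 9 with their own row were lower. Adipocyte markers summed to 16.1 to 42.6 FPKM in knockout-labelled libraries and 2.13 to 4.09 FPKM in wild type, with 2 of 6 higher and Lep and Cidec at 0 in all libraries. Chondrocyte markers summed to 8.04 to 12.96 FPKM in knockout-labelled libraries and 3.91 to 4.60 FPKM in wild type, with 1 of 6 higher and Col9a1 at 0, and keratinocyte markers summed to 7.20 to 13.7 FPKM in knockout-labelled libraries and 4.43 to 5.78 FPKM in wild type, with none of 9 called. Markers of endothelium, leukocytes, melanocytes, Schwann cells, smooth muscle and skeletal muscle overlapped between the genotypes in their summed levels and none was called, with Cldn5, Adgre1, Cd3e, Dct and Myf5 at 0 in all libraries. Markers averaging under 1 FPKM, of any cell type, were not tested and so could not be called. Those of skeletal muscle summed to at most 0.189 FPKM, so none of them entered the test. Each of 4 Y-linked genes lay at 0 to 1.41 FPKM in knockout-labelled libraries and at 3.51 to 35.0 FPKM in wild type, so Y-linked transcripts moved with the genotype label. The knockout-labelled 20(OH)L3 library held 1.41 FPKM of Eif2s3y and 1.22 FPKM of Ddx3y. In the other knockout-labelled libraries these genes reached 0.0521 FPKM at most. The part of these differences in the HOX results was not tested, and in bulk RNA fewer cells of a type and less RNA per cell cannot be told apart.

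The HOX genes that differed split by cluster. The 3 highest-numbered HOXA genes tested, Hoxa9, Hoxa10 and Hoxa11, fell in knockout-labelled fibroblasts, while Hoxb5 and Hoxb6 of HOXB and Hoxd8 and Hoxd9 of HOXD rose. Of the 23 members tested, 4 were higher and 3 lower at an adjusted p of 0.05 by limma, with Benjamini-Hochberg adjustment over the whole table, and 16 were not called. That is 30.4% of the members, beside 9.07% of all rows tested, of which 2.43% were higher and 6.64% lower. All 3 knockout-labelled libraries lay above all 3 wild type libraries for 11 members and below for 3, beside 20.2% and 22.9% of all rows, so that 43.1% of all rows did not overlap in 1 direction or the other. The median log2 difference, knockout-labelled minus wild type on the log2(FPKM + 1) scale, was 0.45 over the members tested, with 18 positive and 5 negative, and -0.00 over all rows. Of the members tested, Hoxa6, Hoxa11 and Hoxd9 averaged under 1 FPKM in 1 of the genotypes and entered the test through the other.

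**Figure D1:**
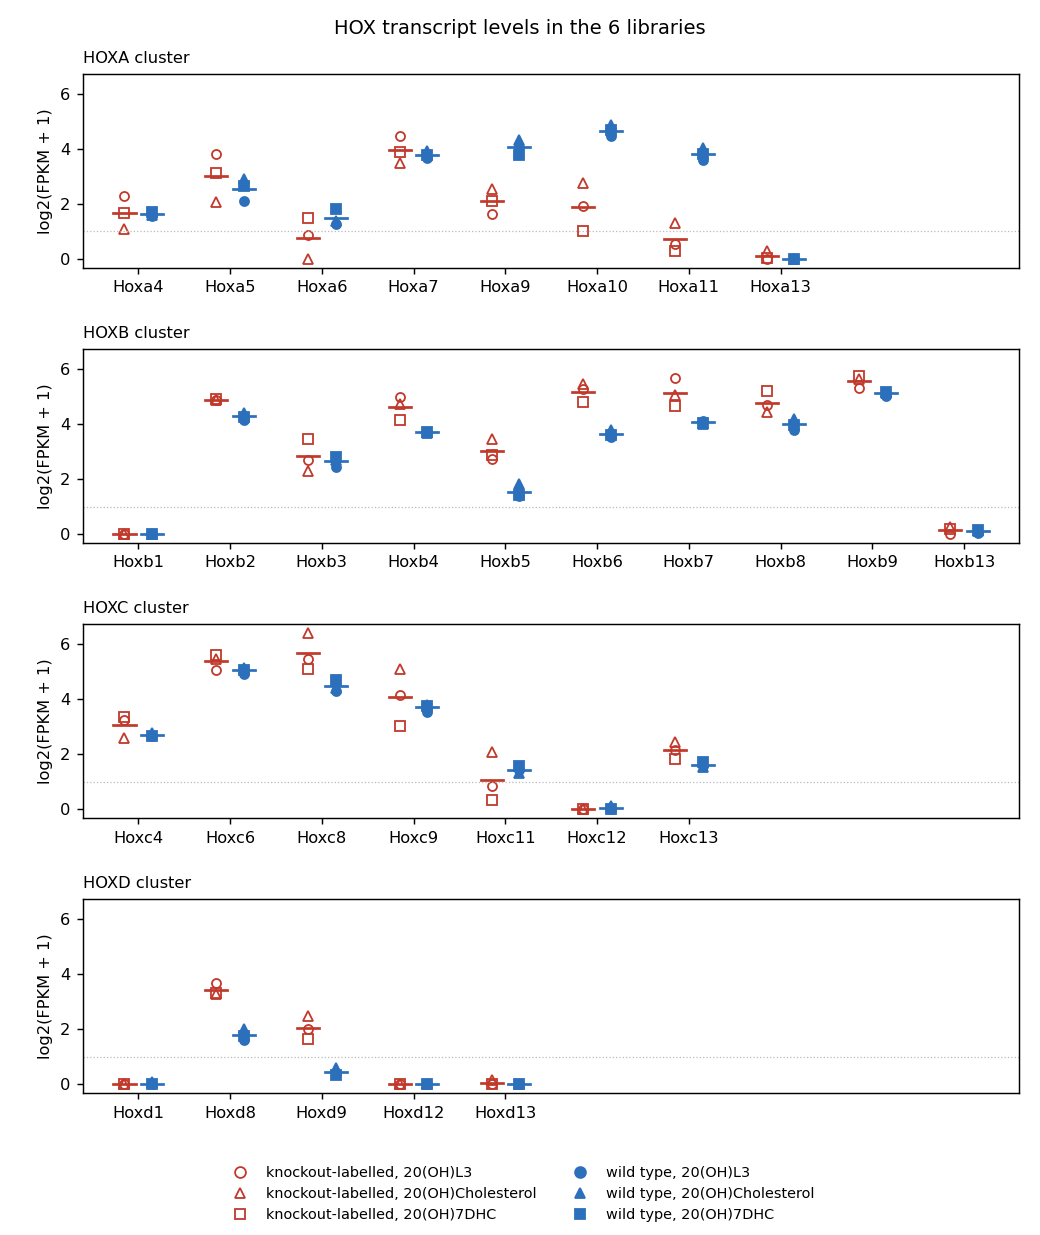
Level of each HOX gene with a row of its own, as log2(FPKM + 1), in the 3 knockout-labelled libraries (open red) and the 3 wild type libraries (filled blue), with the symbol giving the sterol and the bar the mean of 3 libraries. The dotted line marks 1 FPKM. The knockout-labelled points of Hoxa9, Hoxa10 and Hoxa11 lie below those of wild type, and those of Hoxb4 to Hoxb9, Hoxd8 and Hoxd9 lie above them.

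Hoxa9, which marks posterior trunk identity and is also known from blood progenitors, had 2.10, 4.77 and 3.34 FPKM in knockout-labelled fibroblasts given 20(OH)L3, then 20(OH)Cholesterol and then 20(OH)7DHC, against 15.8, 19.1 and 12.7 FPKM in wild type in the same order of sterols, which is kept below. The highest knockout-labelled library was under the lowest wild type one. The gene (ENSMUSG00000038227.15, chr6:52223100-52231089, minus strand) averaged 3.41 ± 1.34 FPKM in knockout-labelled and 15.8 ± 3.21 FPKM in wild type libraries (SD, n = 3 each), a level 4.65-fold lower. Its log2 difference was -1.96 with a standard error of 0.235 (limma, adjusted p = 0.0137).

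Hoxa10, a gene for lumbar vertebrae and the uterus, had 2.84, 5.72 and 1.04 FPKM in knockout-labelled libraries, against 20.97, 28.2 and 24.7 FPKM in wild type. It was the most abundant HOXA member in every wild type library. In the knockout-labelled libraries Hoxa7 took that place. Hoxa10 (ENSMUSG00000000938.11, chr6:52231197-52240854, minus strand) averaged 3.20 ± 2.36 FPKM in knockout-labelled and 24.6 ± 3.60 FPKM in wild type libraries, 7.69-fold lower. The log2 difference was -2.76 with a standard error of 0.340 (limma, adjusted p = 0.0148).

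Hoxa11, which shapes the lower arm and leg and the kidney, was close to the floor in knockout-labelled fibroblasts, with 0.463, 1.49 and 0.237 FPKM, against 11.2, 15.2 and 13.2 FPKM in wild type. These levels correspond to an estimated 9, 24 and 7 fragments in knockout-labelled libraries and 294, 416 and 361 in wild type. Hoxa11 (ENSMUSG00000038210.10, chr6:52242106-52245810, minus strand) averaged 0.731 ± 0.670 FPKM in knockout-labelled and 13.2 ± 2.00 FPKM in wild type libraries, 18.1-fold lower. The log2 difference was -3.09 with a standard error of 0.253 (limma, adjusted p = 0.00576), the largest among the members. On the opposite strand Hoxa11os, an antisense RNA, overlaps 800 bases (35.0%) of the Hoxa11 exons, and since the strand setting of the counting is not given in the sources used here, reads of the pair cannot be told apart. The antisense gene lies in a merged row that reads 0, 87.0 and 4.82 FPKM in knockout-labelled libraries and 146, 34.5 and 47.3 FPKM in wild type, with groups that overlap.

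The 3 genes lie next to each other, with 108 bases between the annotated ends of Hoxa9 and Hoxa10 and 1252 bases between Hoxa10 and Hoxa11. The step falls between Hoxa7 and Hoxa9, which are 1246 bases apart. On the 3′ side of it, Hoxa4, Hoxa5, Hoxa6 and Hoxa7 were not called, all overlapped between genotypes, and their median log2 difference was 0.11. On the 5′ side the median of the 3 genes was -2.76.

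Hoxa7 had 21.4, 10.3 and 13.9 FPKM in knockout-labelled libraries, against 11.9, 14.1 and 12.7 FPKM in wild type (log2 difference 0.16, limma adjusted p = 0.704). The ratio of the Hoxa10 level to the Hoxa7 level within a library was 0.133, 0.558 and 0.0746 in knockout-labelled fibroblasts, against 1.77, 1.99 and 1.94 in wild type. Hoxa5, a gene for the lung and the neck to thorax border, had 13.2, 3.23 and 7.73 FPKM in knockout-labelled libraries, against 3.31, 6.46 and 5.33 FPKM in wild type (log2 difference 0.46, adjusted p = 0.544 by limma). The knockout-labelled libraries spanned a wider range than wild type for both genes. Hoxa4 lay at 1.11 to 3.95 FPKM in knockout-labelled libraries and 1.99 to 2.23 FPKM in wild type, and Hoxa6 at 0 to 1.79 FPKM in knockout-labelled libraries and 1.42 to 2.48 FPKM in wild type. Hoxa13, the limb-tip gene of the cluster, did not exceed 0.228 FPKM in any library. Hoxa7 shares 20.4% of its exon bases and Hoxa4 16.0% with a transcript on the opposite strand.

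HOXB showed the opposite direction. All 8 of its tested members had a positive log2 difference, with a median of 0.85. For 7 of them all knockout-labelled libraries lay above all wild type ones, beside 20.2% of all rows, the exception being Hoxb3. Only Hoxb5 and Hoxb6 passed the threshold.

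Hoxb5, known for its part in the neural crest that enters the gut, had 5.64, 9.89 and 6.27 FPKM in knockout-labelled libraries, against 1.59, 2.54 and 1.65 FPKM in wild type. In both genotypes the 20(OH)Cholesterol library was the highest of the 3. The antisense RNA Hoxb5os covers 3.59% of the Hoxb5 exon bases. Hoxb5 (ENSMUSG00000038700.4, chr11:96303336-96306121, plus strand) averaged 7.27 ± 2.29 FPKM in knockout-labelled and 1.93 ± 0.531 FPKM in wild type libraries, 3.77-fold higher, with a log2 difference of 1.48 and a standard error of 0.210 (limma, adjusted p = 0.0211). Its neighbour Hoxb6, a thoracic and limb gene that ends 1767 bases before Hoxb5 begins, had 37.4, 42.9 and 26.6 FPKM in knockout-labelled libraries, against 10.7, 12.8 and 11.2 FPKM in wild type. Every knockout-labelled library held more than 2 times the highest wild type level. Hoxb6 (ENSMUSG00000000690.5, chr11:96292476-96301569, plus strand) averaged 35.6 ± 8.30 FPKM in knockout-labelled and 11.6 ± 1.10 FPKM in wild type libraries, 3.08-fold higher, with a log2 difference of 1.52 and a standard error of 0.203 (limma, adjusted p = 0.0180).

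The other HOXB members on either side of the pair lay above wild type without passing the threshold. Hoxb7 had 50.7, 32.2 and 24.3 FPKM in knockout-labelled libraries, against 16.4, 15.1 and 15.5 FPKM in wild type (log2 difference 1.08, limma adjusted p = 0.0600). Hoxb4, which is known to expand blood stem cells, had 30.6, 25.8 and 16.7 FPKM in knockout-labelled libraries, against 12.2, 11.8 and 12.2 FPKM in wild type (log2 difference 0.91, limma adjusted p = 0.0745). Hoxb2, a hindbrain gene, had 28.4, 28.2 and 29.1 FPKM in knockout-labelled libraries, against 16.9, 20.0 and 18.3 FPKM in wild type (log2 difference 0.61, limma adjusted p = 0.0920). Among the knockout-labelled libraries, Hoxb7 and Hoxb4 were highest with 20(OH)L3 and lowest with 20(OH)7DHC, while Hoxb2 was nearly level. Hoxb8, a trunk gene also active in blood cells, had 24.8, 20.8 and 35.5 FPKM in knockout-labelled libraries, against 12.9, 17.3 and 14.6 FPKM in wild type (log2 difference 0.79, limma adjusted p = 0.106). Hoxb9, a gene for the thoracic skeleton, had 38.3, 49.3 and 52.4 FPKM in knockout-labelled libraries, against 31.6, 34.1 and 35.3 FPKM in wild type (log2 difference 0.45, limma adjusted p = 0.164). It was the HOXB member with the highest level in all 3 wild type libraries. Hoxb3 overlapped, with 3.96 to 10.1 FPKM in knockout-labelled libraries and 4.40 to 5.98 FPKM in wild type (log2 difference 0.19, limma adjusted p = 0.648). An antisense gene, Hoxb3os, covers 52.9% of the Hoxb3 exon bases and 27.3% of those of Hoxb2, so the levels of these 2 genes are uncertain. Hoxb1 was at 0 in all 6 libraries and Hoxb13 reached 0.193 FPKM at most.

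HOXD transcripts were scarce, and the 2 members tested both rose. Hoxd9 averaged under 1 FPKM in wild type and entered the test only through its level in knockout-labelled libraries. The count of 2 therefore does not describe the cluster as a whole. Hoxd8 had 11.7, 8.74 and 9.04 FPKM in knockout-labelled libraries, against 2.05, 2.99 and 2.37 FPKM in wild type. All knockout-labelled libraries stood well above the wild type range. Hoxd8 (ENSMUSG00000027102.4, chr2:74704615-74707933, plus strand) averaged 9.82 ± 1.62 FPKM in knockout-labelled and 2.47 ± 0.475 FPKM in wild type libraries, 3.98-fold higher, with a log2 difference of 1.64 and a standard error of 0.238 (limma, adjusted p = 0.0222). Hoxd9, a gene of the upper limb segment that works with Hoxa9, had 3.01, 4.59 and 2.13 FPKM in knockout-labelled libraries, against 0.328, 0.512 and 0.274 FPKM in wild type. These levels correspond to an estimated 53, 68 and 55 fragments in knockout-labelled libraries and 8, 13 and 7 in wild type. Hoxd9 (ENSMUSG00000043342.9, chr2:74697727-74700208, plus strand) averaged 3.24 ± 1.25 FPKM in knockout-labelled and 0.371 ± 0.125 FPKM in wild type libraries, 8.74-fold higher, with a log2 difference of 1.59 and a standard error of 0.291 (limma, adjusted p = 0.0386). Hoxd9 thus moved in the direction opposite to that of its paralogue Hoxa9. Hoxd1, Hoxd12 and Hoxd13 stayed at or below 0.113 FPKM, with Hoxd12 at 0 in all libraries.

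None of the 6 HOXC members tested was called, although 5 had a positive log2 difference and their median was 0.37. Hoxc8, a gene of the thoracic vertebrae and forelimb motor neurons, had the highest level of all members in 1 library, with 43.3, 83.7 and 33.5 FPKM in knockout-labelled cells, against 18.5, 20.4 and 24.7 FPKM in wild type. The genotypes did not overlap, yet the spread among knockout-labelled libraries was wide (53.5 ± 26.6 FPKM in knockout-labelled and 21.2 ± 3.16 FPKM in wild type libraries, log2 difference 1.20, limma adjusted p = 0.0852). Hoxc13, which controls hair keratins and nail formation, had 3.45, 4.39 and 2.52 FPKM in knockout-labelled libraries, against 2.00, 1.86 and 2.31 FPKM in wild type (log2 difference 0.52, limma adjusted p = 0.237). Hoxc6 had 32.7, 42.6 and 47.3 FPKM in knockout-labelled libraries, against 29.5, 34.5 and 32.3 FPKM in wild type (log2 difference 0.33, limma adjusted p = 0.279). The genotypes overlap for Hoxc6 and not for Hoxc13. Hoxc4 lay at 5.06 to 9.08 FPKM in knockout-labelled libraries and 5.29 to 5.78 FPKM in wild type, and Hoxc12 was under 0.1 FPKM throughout.

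Hoxc9, another thoracic gene, had 16.5, 32.9 and 7.18 FPKM in knockout-labelled libraries, against 10.7, 12.8 and 12.5 FPKM in wild type (log2 difference 0.38, limma adjusted p = 0.532). Hoxc11, a gene of the lower trunk and hindlimb, had 0.785, 3.18 and 0.247 FPKM in knockout-labelled libraries, against 1.66, 1.47 and 2.00 FPKM in wild type (log2 difference -0.36, limma adjusted p = 0.608). For Hoxc8, Hoxc9, Hoxc11 and Hoxc13 the knockout-labelled 20(OH)Cholesterol library was the highest of all 6, and the knockout-labelled 20(OH)7DHC library was the lowest of the 3 of its genotype.

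**Figure D2:**
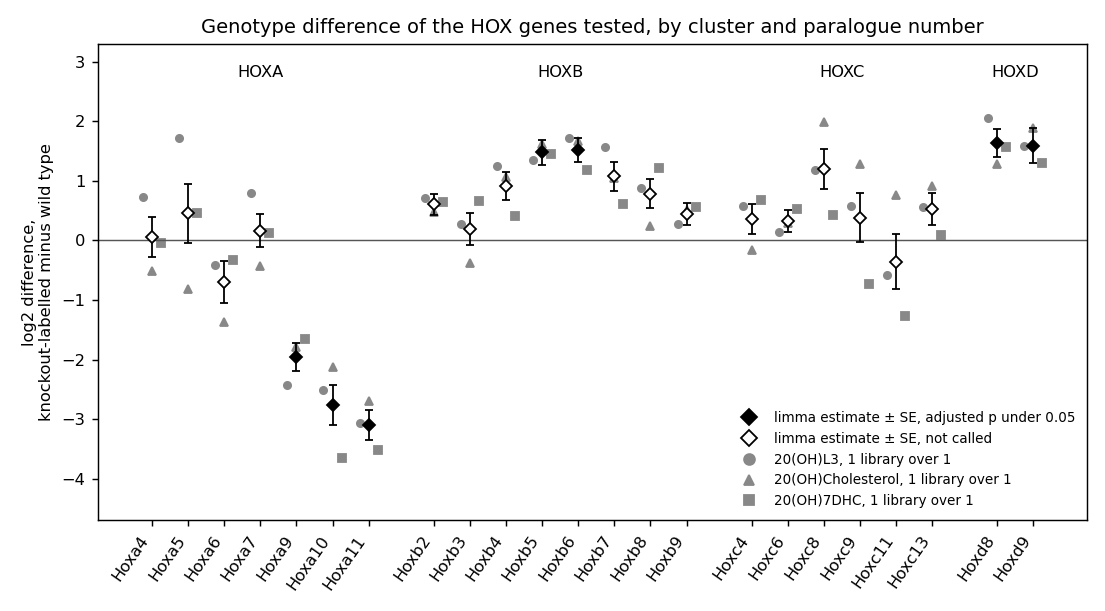
Log2 difference of each of the 23 HOX genes tested, knockout-labelled minus wild type on the log2(FPKM + 1) scale, in cluster and paralogue order. Diamonds are limma estimates with their standard errors, black where the adjusted p is under 0.05, and grey symbols are the ratio of 1 library over 1 library in each sterol. Hoxa9, Hoxa10 and Hoxa11 lie between -3.09 and -1.96, and Hoxb5, Hoxb6, Hoxd8 and Hoxd9 between 1.48 and 1.64.

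The 4 merged rows hold the other 8 members and cannot be split. The row of Hoxc10 and Hoxc5 had 15.9, 30.2 and 17.6 FPKM in knockout-labelled libraries, against 37.4, 42.4 and 43.9 FPKM in wild type (log2 difference -0.97, limma adjusted p = 0.0664). The row of Hoxd3, Hoxd4 and the predicted gene Gm28230 had 3.68, 5.46 and 1.69 FPKM in knockout-labelled libraries, against 0.688, 0.611 and 0.436 FPKM in wild type (log2 difference 1.46, limma adjusted p = 0.0586). Neither passed the threshold, though in both rows the genotypes were apart. The row of Hoxa2, Hoxa3 and Gm28308 overlapped (log2 difference -0.07, limma adjusted p = 0.906), and that of Hoxd10, Hoxd11 and Gm28309 was under 1 FPKM on average, with 0.103, 1.22 and 0.0562 FPKM in knockout-labelled libraries and 0.189, 0.0572 and 0.0938 FPKM in wild type.

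By paralogue number, the differences were mostly positive in the middle of the clusters and mixed at the 5′ end, where all 3 lower genes belonged to HOXA. Of the 13 members numbered 4 to 8 that were tested, 3 were higher and none lower, 12 were positive and the median log2 difference was 0.79. Of the 8 numbered 9 to 13, 1 was higher and 3 lower, with a median of 0.01. Over all rows, 2.43% were higher and 6.64% lower. The 3 lower were Hoxa9, Hoxa10 and Hoxa11, and the only other negative one was Hoxc11 (-0.36). In HOXB, HOXC and HOXD together, 15 of the 16 members tested were positive, so these counts do not show a trend along every cluster. Of the 2 numbered 1 to 3, neither was called.

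Summed over the members with a row of their own, paralogue group 8 (Hoxb8, Hoxc8 and Hoxd8) held 90.3 ± 19.8 FPKM in knockout-labelled and 38.6 ± 4.45 FPKM in wild type libraries (SD, n = 3 each). Group 6 held 77.4 ± 7.41 FPKM in knockout-labelled and 45.5 ± 3.65 FPKM in wild type libraries, and group 5 held 15.3 ± 3.11 FPKM in knockout-labelled and 6.96 ± 2.05 FPKM in wild type libraries. Groups 2, 4, 7 and 13 were above wild type in the same way, without overlap between the genotypes. Group 9 overlapped, with 60.0, 91.5 and 65.0 FPKM in knockout-labelled libraries against 58.4, 66.5 and 60.8 FPKM in wild type. Within it Hoxa9 fell and Hoxd9 rose. Group 11 (Hoxa11 and Hoxc11) held 2.14 ± 2.23 FPKM in knockout-labelled and 14.9 ± 1.92 FPKM in wild type libraries. Group 10, left with Hoxa10 alone, was below wild type as given above. These sums are descriptions and were not tested.

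The make-up of the HOX signal shifted between the clusters. All members with their own row summed to 386, 425 and 342 FPKM in knockout-labelled libraries, against 243, 286 and 270 FPKM in wild type. HOXA took 11.6%, 6.31% and 8.84% of this sum in knockout-labelled libraries, against 27.3%, 30.3% and 27.2% in wild type. HOXB took 57.3%, 50.1% and 58.7% in knockout-labelled libraries, against 43.9%, 41.6% and 42.6% in wild type. The HOXA share was therefore lower, and the HOXB share higher, in every knockout-labelled library than in every wild type library. HOXC took 27.2%, 40.4% and 29.2% in knockout-labelled libraries, against 27.8%, 26.9% and 29.3% in wild type, which overlap. Merged rows are left out of these sums, that of Hoxc10 and Hoxc5 among them. That row had 15.9, 30.2 and 17.6 FPKM in knockout-labelled libraries, against 37.4, 42.4 and 43.9 FPKM in wild type. In each wild type library it was above every member counted, so the HOXC shares do not describe the whole cluster. HOXD took 3.80%, 3.16% and 3.26% in knockout-labelled libraries, against 0.979%, 1.24% and 0.978% in wild type. Within HOXA, the trio Hoxa9 to Hoxa11 made up 12.0%, 44.7% and 15.3% in knockout-labelled libraries, against 72.1%, 72.1% and 68.9% in wild type, so that the 20(OH)Cholesterol library was the least far from wild type. A share of a sum falls when other parts rise, and FPKM do not give molecules per cell.

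**Figure D3:**
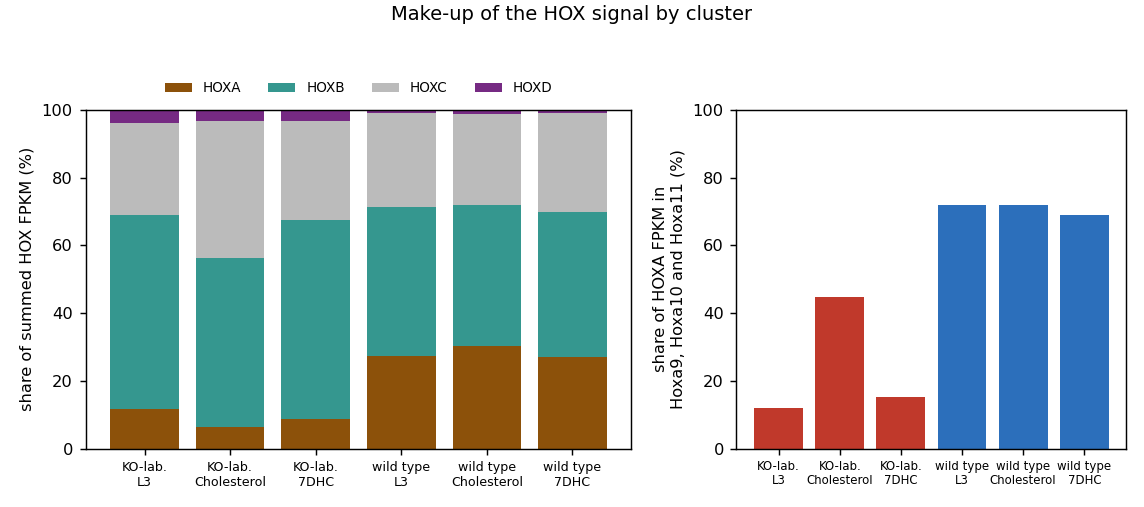
Left, share of the summed FPKM of the HOX genes with a row of their own held by each cluster (%) in the 3 knockout-labelled and the 3 wild type libraries. Merged rows, that of Hoxc10 and Hoxc5 among them, are left out. Right, share of the HOXA sum held by Hoxa9, Hoxa10 and Hoxa11 (%), in red for knockout-labelled and blue for wild type. HOXA takes 6.31% to 11.6% of the sum in knockout-labelled libraries and 27.2% to 30.3% in wild type.

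The sizes of the 7 differences held when libraries were left out, while the calls did not. Without 1 library at a time, the log2 difference stayed between -3.29 and -2.88 for Hoxa11, between -3.09 and -2.32 for Hoxa10, between 1.41 and 1.54 for Hoxb5 and between 1.45 and 1.74 for Hoxd9. Such fits have 1 residual degree of freedom. Without a library of 20(OH)L3 or 20(OH)Cholesterol none of the 7 was called, and over all rows 0 to 6 were called higher and 0 to 132 lower, against 308 and 842 with all libraries, while without a 20(OH)7DHC library Hoxa9, Hoxa10, Hoxa11, Hoxb6 and Hoxd9 stayed called, Hoxb5 and Hoxd8 did not, and Hoxb4 was added (log2 difference 1.16). Leaving out a 20(OH)7DHC library gave 1034 or 1095 higher and 803 or 830 lower over all rows. With no filter on low values, Hoxa11 alone stayed called, and 25 rows were higher and 242 lower over the whole table. In each of these settings the direction of the 7 genes was kept.

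Values within a sterol compare 1 library with 1 library and have no test. Across the 3 sterols, 16 of the 23 members kept 1 direction. The members had a median log2 ratio (knockout-labelled to wild type) of 0.71 under 20(OH)L3, 0.47 under 20(OH)Cholesterol and 0.46 under 20(OH)7DHC. In the libraries with 20(OH)L3 and 20(OH)Cholesterol, short transcripts read high in knockout-labelled cells. The median ratio was 1.23, 1.03 and 0.03 for the 436 genes under 1000 nt and -0.37, -0.39 and 0.02 for the 1381 of at least 6000 nt, in the order of sterols above. The HOX members tested are 874 to 3226 nt long, and genes of 1500 to 3500 nt had medians of 0.10, 0.10 and -0.02. With each library's length trend removed, the same 7 genes were called.

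The sterols are related compounds given at 1 dose and time, and no HOX member was called between them. The 3 pairs were compared by limma with genotype as a term, 2 libraries a sterol. None of the 23 members passed the adjusted threshold in any pair, also after adjustment over the 3 pairs together, and none had an unadjusted p under 0.05. Over all rows, 5 were called for 20(OH)L3 against 20(OH)7DHC (0.0395%), 5 for 20(OH)Cholesterol against 20(OH)7DHC (0.0395%) and 0 for 20(OH)L3 against 20(OH)Cholesterol, while 482, 221 and 242 rows had an unadjusted p under 0.05 (3.8%, 1.74% and 1.91%). The smallest unadjusted p values of a member in limma were 0.125 for Hoxb7, 0.0705 for Hoxa10 and 0.0732 for Hoxb5, in the same order of pairs. The members' log2 differences between sterols ran from -0.95 to 1.04 with standard errors of 0.218 to 0.611, so differences of this size were not detectable with 2 libraries a sterol, and these tests do not show that the compounds act alike.

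Partners and regulators of the HOX genes were counted by the same test, to be read beside the 9.07% of all rows that were called. Of 6 PBX, MEIS and PKNOX partners counted here, none was called, with a median log2 difference of -0.03. Pknox2 had 0.516, 0.0403 and 2.52 FPKM in knockout-labelled libraries, against 3.95, 5.13 and 3.98 FPKM in wild type (log2 difference -1.59, limma adjusted p = 0.0864). Every knockout-labelled library of Pknox2 lay below wild type without the gene reaching the threshold. None of 20 Polycomb subunits was called (median -0.08), the closest being Phc2 at a log2 difference of 0.98 (limma adjusted p = 0.0513), and none of 12 Trithorax members and H3K27 demethylases (median -0.09). Evx1, Evx2, Cdx1, Cdx2 and Cdx4, homeobox genes that border or switch on the clusters, were at 0 in all 6 libraries.

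Of the 9 retinoic acid genes counted here, 1 was higher and 1 lower (median 0.26), beside 2.43% and 6.64% of all rows. Rara, a retinoic acid receptor, had 37.4, 33.3 and 40.3 FPKM in knockout-labelled libraries, against 17.0, 17.9 and 16.3 FPKM in wild type (log2 difference 1.07, limma adjusted p = 0.0352). Crabp1, which binds retinoic acid in the cytoplasm, had 49.9, 75.4 and 19.4 FPKM in knockout-labelled libraries, against 179, 221 and 164 FPKM in wild type (log2 difference -2.13, limma adjusted p = 0.0284). Neither gene overlapped between genotypes. The other RAR receptor tested, Rarg, lay below wild type without being called, with 14.7, 20.5 and 24.8 FPKM in knockout-labelled libraries, against 33.4, 38.7 and 36.9 FPKM in wild type (log2 difference -0.86, limma adjusted p = 0.0646). Rarb, under 1 FPKM, also lay below wild type in all libraries, and the other carrier, Crabp2, overlapped (log2 difference 0.26). Aldh1a1, a retinoic acid synthesis enzyme, was not called (log2 difference -1.04, limma adjusted p = 0.0585).

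Other position factors of the limb were read beside the HOX genes. Of 5 tested, 1 was lower and none higher, beside 6.64% and 2.43% of all rows. Hand2, a factor of the posterior limb bud, had 4.04, 3.71 and 2.61 FPKM in knockout-labelled libraries, against 12.9, 15.1 and 12.9 FPKM in wild type (log2 difference -1.73, limma adjusted p = 0.0128). Pitx1, which sets hindlimb identity, lies in a merged row with the predicted gene Gm28760 that had 0.293, 0.286 and 0.599 FPKM in knockout-labelled libraries, against 11.3, 12.2 and 12.99 FPKM in wild type (log2 difference -3.25, limma adjusted p = 0.00344). The row averaged 0.393 FPKM in knockout-labelled libraries and entered the test only through its level in wild type. Tbx4, the hindlimb partner of Pitx1, was under 1 FPKM, with 0, 0.0933 and 0.109 FPKM in knockout-labelled libraries and 0.373, 0.663 and 0.384 FPKM in wild type. The forelimb factor Tbx5, also under 1 FPKM, overlapped, with 0.244 to 0.822 FPKM in knockout-labelled libraries and 0.594 to 0.694 FPKM in wild type. The Pitx1 row and Hand2 lay below wild type in all 3 knockout-labelled libraries, as did 22.9% of all rows. Shox2 lay above wild type in all of them (6.25 ± 1.34 FPKM in knockout-labelled and 3.96 ± 0.144 FPKM in wild type libraries, log2 difference 0.53) without being called. Emx2 (log2 difference 0.29), Irx3 (0.58) and Irx5 (-0.41) were not called either. A link between these factors and the HOX genes was not tested.

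Genes beside the clusters were compared in the same way. Of 10 neighbours tested, 1 was higher and none lower (median -0.16), beside 2.43% and 6.64% of all rows. Skap1, an adaptor of T cell signalling whose annotated start lies 96.3 kb beyond the end of Hoxb1, had 4.52, 3.81 and 1.96 FPKM in knockout-labelled libraries, against 0.454, 0.304 and 0.310 FPKM in wild type (log2 difference 1.66, limma adjusted p = 0.0403). Skap1 averaged 0.356 FPKM in wild type and entered the test only through its level in knockout-labelled libraries. Snx11, on the far side of Skap1 from Hoxb1, lay above wild type without being called (log2 difference 0.66, limma adjusted p = 0.0883). It averaged 17.5 ± 1.79 FPKM in knockout-labelled and 10.7 ± 0.707 FPKM in wild type libraries. Next to HOXA, Hibadh lay below wild type without being called (25.5 ± 3.24 FPKM in knockout-labelled and 39.2 ± 0.174 FPKM in wild type libraries, log2 difference -0.61, limma adjusted p = 0.0984), and Skap2 overlapped. In all libraries 4 neighbours lay above and 4 below wild type, beside 20.2% and 22.9% of all rows.

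**Figure D4:**
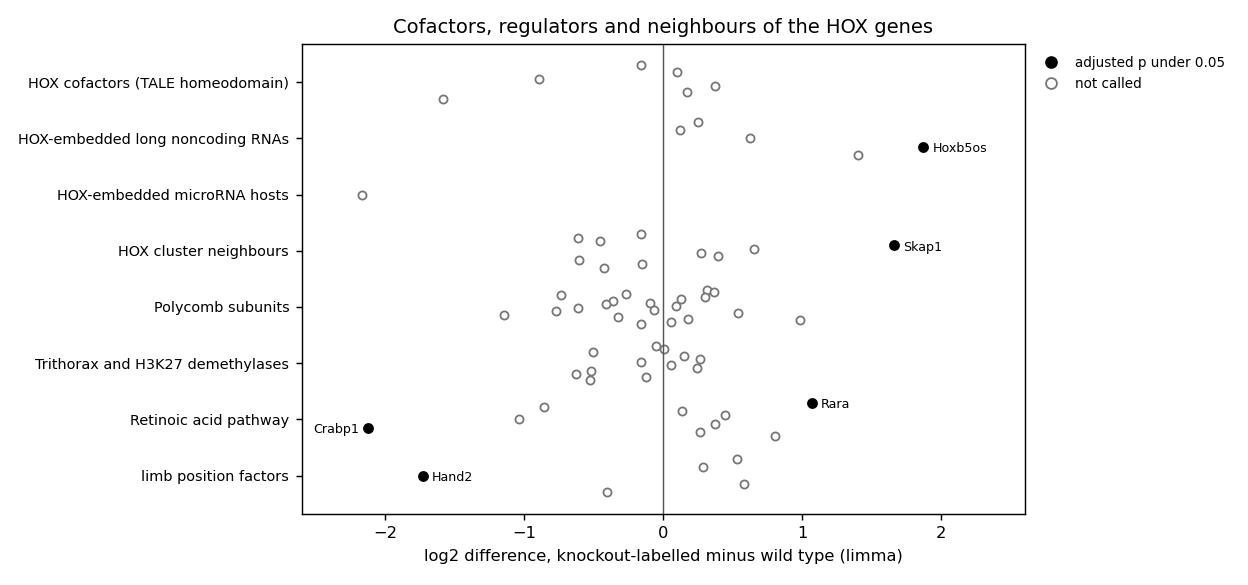
Log2 difference, knockout-labelled minus wild type, of the tested genes in 8 lists of HOX partners, regulators, embedded RNAs and neighbours, with called genes (limma, adjusted p under 0.05) filled and named. Merged rows are left out. Hand2 at -1.73 and Crabp1 at -2.13 lie on the left, and Rara at 1.07, Skap1 at 1.66 and Hoxb5os at 1.87 on the right.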

How the data were processed

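RNA from 6 libraries of pooled dermal fibroblasts was sequenced, and grouping followed each sample's labelled genotype and sterol. The design text of the series speaks of other sterols and an ethanol comparison, which the sample labels do not hold. No genotype was established from values, and the transcript of the targeted gene, like some genes of the other lists, is not reported here. The authors deposited FPKM per gene in 1 table of 46958 rows, of which 1061 merge overlapping symbols. The submitters' processing notes name STAR 2.5.4b, Cufflinks 2.2.1, Cuffdiff and GRCm38. Annotation, strand setting, filters and the treatment of multiply mapped reads: not given in the sources used here. Coordinates and lengths came from GENCODE M21 on GRCm38.

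Depth is not stated. Among low values of transcripts 900 to 4000 nt long, 97.1% to 98.3% per library were whole multiples of 1 fragment within 0.05, against 10% by chance, and the fragment totals this gave describe depth only. A count test was not run.

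Log2(FPKM + 1) was computed for the 12673 rows that averaged 1 FPKM or more. The model in limma 3.58.1 (R 4.3.3) held genotype and sterol and used all 6 libraries, with an intensity trend, 2-sided tests and Benjamini-Hochberg adjustment at 0.05 (2 residual and 3.04 prior degrees of freedom). Each sterol has 1 library of each genotype, so the sterol term is the block that pairs them, and the labels carry no replicate numbers. Differences on this scale understate those of low genes. On 3 simulated tables of 12673 genes with 200 changed by genotype, the fit recovered 92% to 97% of those changed 4-fold and 98% to 99% of those changed 8-fold, with 14 to 19 false calls. Neither a length trend nor an outlying library was simulated. The changed genes averaged between 2 and 8 on the log2 scale, where a 4-fold change is 2, and no smaller change was simulated. The recovery therefore does not cover Hoxa9 (-1.96) or the called HOXB and HOXD members (1.48 to 1.64). All called members were given by library, and of the other lists up to 4 genes with the smallest adjusted p, while Skap2, Tbx4, Tbx5, Emx2, Rarb, Crabp2, Hotair and the merged rows were picked with values known. The members and lists were chosen with earlier results of these data known. Alternatives were another pseudocount, other filters, other scalings, removal of the length trend, single-gene rows, other variance priors, omission of the sterol or the genotype term, and omission of single libraries or sterols. Tables and figures were made in Python 3.11.15 (pandas 2.3.3, numpy 2.4.6, matplotlib 3.10.9).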

Additional observations from a re-analysis of the deposited data

Results flagged for a closer look

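In 3 HOX genes the genotype ratio pointed in opposite directions under different sterols, by at least 1.5-fold each way. For Hoxa5 the log2 ratio (knockout-labelled to wild type) was 1.72 under 20(OH)L3 and -0.82 under 20(OH)Cholesterol. For Hoxc9 it was 1.29 with 20(OH)Cholesterol and -0.72 with 20(OH)7DHC, and for Hoxc11 it was 0.76 with 20(OH)Cholesterol and -1.27 with 20(OH)7DHC. Each ratio compares 1 library with 1 library, so the difference between sterols was not tested. Such opposite ratios occurred in 3 of the 23 HOX genes tested (13.04%) and in 586 of 12673 rows (4.62%).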

How the results depend on the processing

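None of the 7 called HOX genes changed direction in any of 19 alternatives, and over all members tested 357 values kept their direction and side of the threshold, 54 lost a call, 7 gained one and 19, all of 6 genes without a call, changed sign. These were Hoxa4 with the length trend removed (-0.22), Hoxa4 (-0.28), Hoxa5 (-0.18) and Hoxa7 (-0.15) without 1 or both 20(OH)L3 libraries, Hoxc9 (-0.068) without 20(OH)Cholesterol, and Hoxb3 (-0.053) and Hoxc11 (0.095) without 20(OH)7DHC, at adjusted p of 0.651 or more (limma), and the cause was not tested. Without 1 library at a time, the log2 difference ran from -0.28 to 0.34 for Hoxa4, -0.18 to 1.09 for Hoxa5, -0.15 to 0.46 for Hoxa7, -0.068 to 0.94 for Hoxc9, -0.053 to 0.47 for Hoxb3 and -0.92 to 0.095 for Hoxc11. The counts of 4 higher and 3 lower held with a pseudocount of 0.1, a filter at 0.1 FPKM, median-of-ratios scaling, the length trend removed, single-gene rows, no trend and a robust prior, and quantile normalization gave 5 higher (Hoxb7 added) and 3 lower. With no filter 0 were higher and 1 lower (Hoxa11), where 23461 rows were tested and the adjusted p of the other 6 lay between 0.0635 and 0.0895. With no sterol term (no replicate block) 7 were higher, Hoxb2, Hoxb4 and Hoxb7 being added, and 3 lower. Calls also rose over all rows, to 735 higher and 1336 lower in that setting, against 308 and 842 in the main fit. Quantile normalization gave 576 higher and 842 lower over all rows, and omission of both 20(OH)7DHC libraries gave 1139 and 871. Leaving out 1 library gave 0 to 3 higher and 0 to 3 lower. The lone library left for that sterol then carries no information on genotype, so the estimates equal those without both libraries of the sterol, and 1 residual degree of freedom remains. Without both 20(OH)L3 libraries 0 were higher and 0 lower, without both 20(OH)Cholesterol libraries 0 and 0, and without both 20(OH)7DHC libraries 3 and 3. Over all rows the 20(OH)Cholesterol omission also left 0 calls, with 1893 rows at an unadjusted p under 0.05 (limma). The log2 difference ranged over all alternatives from -2.24 to -1.73 for Hoxa9, -3.19 to -2.32 for Hoxa10, -4.30 to -2.85 for Hoxa11, 1.41 to 1.85 for Hoxb5, 1.36 to 1.69 for Hoxb6, 1.43 to 1.95 for Hoxd8 and 1.45 to 2.79 for Hoxd9, and the highest adjusted p of any of the 7 was 0.207 (limma). The sterol counts stayed at 0. Depth limits Hoxa11 in knockout-labelled and Hoxd9 in wild type libraries to an estimated 7 to 24 and 7 to 13 fragments, and the 7 members under 1 FPKM lay near or under the 3-fragment floor of 0.0969 to 0.468 FPKM.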

Other observations

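Noncoding rows inside the clusters were read beside the coding members. Of 5 long noncoding RNAs tested, 1 was higher in knockout-labelled libraries, beside 2.43% of all rows. Hoxb5os, antisense to Hoxb5, had 8.67, 68.2 and 40.7 FPKM in knockout-labelled libraries (20(OH)L3 first, then 20(OH)Cholesterol, then 20(OH)7DHC), against 2.24, 12.8 and 11.8 FPKM in wild type (log2 difference 1.87, limma adjusted p = 0.0138). Each knockout-labelled library was above the wild type library of the same sterol, although the genotypes overlapped across sterols. The exons of Hoxb5os and Hoxb5 share 100 bases (3.59% of Hoxb5). Hoxb3os lay above wild type in all libraries without being called (24.7 ± 0.649 FPKM in knockout-labelled and 15.7 ± 1.28 FPKM in wild type libraries, SD, n = 3 each, limma adjusted p = 0.0860). Hotair, a HOXC transcript known from human posterior skin fibroblasts, did not exceed 0.127 FPKM, and the merged row of Hottip was at 0 in all 6 libraries. Of the 5 microRNA genes with a row of their own, 4 were at 0 in all libraries, and Mir196a-1 varied from 0 to 121 FPKM in knockout-labelled and from 35.6 to 149 FPKM in wild type libraries. Their annotated spans are shorter than the estimated mean fragment length of 190 to 200 nt. These values therefore show neither absence nor level.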
